A study of Rattus norvegicus with 6 samples.

Results

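The complement system is a set of blood and tissue proteins that mark microbes, dying cells and debris for removal. In the classical pathway the recognition protein C1q, built from 3 kinds of chain, binds the proteases C1r and C1s, and in the lectin pathway ficolins and collectins bind sugars and act with related proteases. Both routes, and the alternative pathway that runs by itself on surfaces, meet at the central component C3, whose fragments coat targets and signal through receptors on myeloid cells. Most complement in blood comes from the liver, but tissue macrophages are a main source of C1q, and fibroblast-like stromal cells are known to make the C1r and C1s proteases and their inhibitor.

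Described here are 9 complement genes, the C1q chain genes C1qa, C1qb and C1qc, the ficolin gene Fcna, the protease genes C1r and C1s, the central component gene C3 and the receptor genes C3ar1 and C5ar1. They were given by name, with earlier results of these data known, and a gene's row was taken where the array annotation gave it exactly 1 symbol. All 9 were found, each with 1 row, among 14506 such genes in a table of 29215 rows. The cells came from the long bones of newborn Sprague Dawley rats, aged 2 to 5 days, and were attached to plates coated with mouse prothrombin (PT), the precursor of the clotting protease thrombin, or with osteopontin from bovine milk (OPN), an acidic protein of bone matrix. Their RNA was hybridised to Affymetrix Rat Gene 1.0 ST arrays, and each coating has 3 arrays, numbered 1, 2 and 4 for PT and 2, 3 and 4 for OPN. The study set these populations, both described as holding multinucleated cells with tartrate-resistant acid phosphatase, against each other. The labels give no purification beyond attachment, and they do not say whether animals were pooled or whether the arrays came from separate preparations, so the p-values reflect the spread among these 6 arrays alone, and that spread may be technical.

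Values are linear signals of a probe set in arbitrary units. Array medians lay between 207.8 and 231.4 units. Correlations across rows were at least 0.988 within a coating and at most 0.979 between coatings, and no array stood apart by these measures. Single genes still varied within PT, such as the granulocyte gene Ngp with 2164, 2829 and 4278 on replicates 1, 2 and 4. Whether a row lay above background is not known, the number of arrays limits the precision, and signals of different genes are not compared because probe sets differ in brightness. Differences are OPN minus PT on the scale log2(signal + 16), which understates the change of dim genes. Folds and ratios are taken from these differences, so they can differ from the ratio of the printed mean signals. A gene is said to have risen or fallen where limma's test gave an adjusted p below 0.05 over all rows.

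The 9 genes did not move as 1 group. The C1q chain genes and Fcna fell on OPN, C1r rose, and C1s, C3, C3ar1 and C5ar1 did not pass the test. Of the 9, 4 fell, where 0.77% of all rows were called lower, and 1 rose, where 5.05% were called higher. Among the 14506 genes with 1 row each, from which the 9 were taken, 162 were called lower and 1105 higher. Because the genes were chosen with results known, these counts are a description, and the background itself moved with the setting, from 48 to 745 rows called lower over the alternatives beside the 225 reported. Their median difference was -0.25, beside 0.03 over all rows. The arrays of the coatings did not overlap in 6 of the 9, and 23.7% of all rows and 4410 of the 14506 genes showed no overlap.

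**Figure D1:**
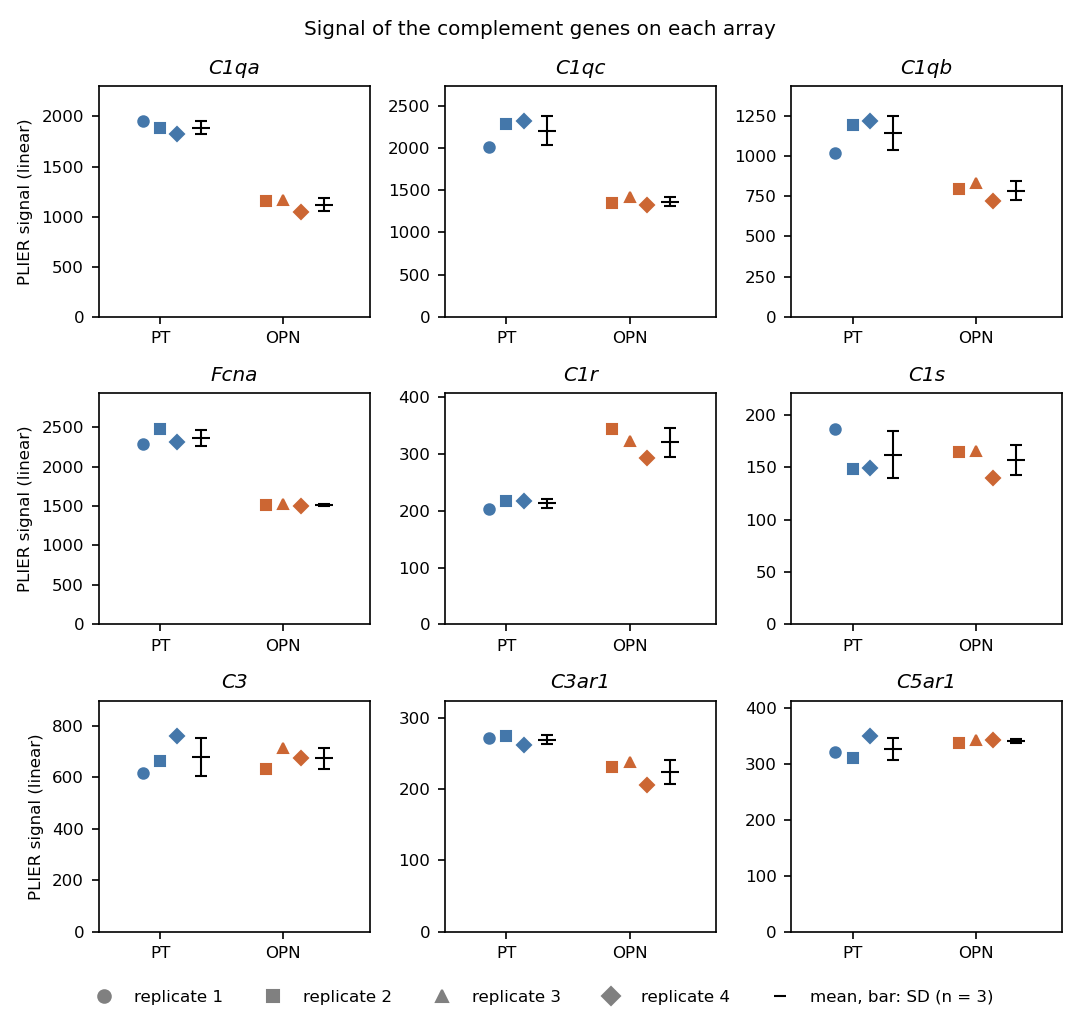
Linear PLIER signal (vertical axes, from 0, a scale of its own for each gene) of the 9 complement genes on each of 3 PT arrays (blue) and 3 OPN arrays (orange), with the marker shape giving the replicate number and the black bar the mean and SD. C1qa, C1qb, C1qc, Fcna and C3ar1 are lower on every OPN array than on any PT array, C1r is higher, and C1s, C3 and C5ar1 overlap.

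C1qa, C1qb and C1qc encode the A, B and C chains, which assemble together into the C1q molecule. C1qa had signals of 1952, 1887 and 1826 on the PT arrays (replicates 1, 2 and 4) and 1151, 1162 and 1044 on the OPN arrays (replicates 2, 3 and 4). C1qc had 2008, 2286 and 2316 on PT and 1349, 1420 and 1328 on OPN. C1qb had 1018, 1190 and 1215 on PT and 797, 833 and 719 on OPN. Every OPN array lay below every PT array for all 3 chain genes, and PT replicate 1 was the lowest PT array for C1qb and C1qc but the highest for C1qa.

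The OPN mean of C1qa was 1119 ± 65.3 and the PT mean 1888 ± 62.8 (SD, n = 3 each), a 1.68-fold lower signal on OPN with a log2 difference of -0.75 (SE 0.07, 95% confidence interval -0.91 to -0.58, limma adjusted p = 0.000413). C1qc, with means of 1365 ± 48.1 (OPN) and 2204 ± 170 (PT, SD, n = 3 each), was 1.60-fold lower, a difference of -0.68 (SE 0.08, limma adjusted p = 0.00117). C1qb, at 783 ± 58.1 and 1141 ± 107 (SD, n = 3), was 1.45-fold lower, a difference of -0.53 (SE 0.09, interval -0.75 to -0.32, limma adjusted p = 0.0108). All 3 chain genes kept their direction and their call under each of the 13 alternative settings. The adjusted p of C1qb ranged from 0.000372 to 0.0451 over these settings.

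Because the chains are parts of 1 protein, their changes were set against each other within each array. The log2 signal of C1qa minus that of C1qb was 0.93, 0.66 and 0.58 on PT and 0.52, 0.47 and 0.53 on OPN, so that it was lower on every OPN array, a difference of -0.21. Without PT replicate 1 that difference was -0.11. C1qc minus C1qb was 0.97, 0.93 and 0.92 on PT and 0.75, 0.76 and 0.87 on OPN, again without overlap, a difference of -0.15. C1qa minus C1qc differed by -0.07, with overlapping arrays, and turned to 0.02 without PT replicate 1. Exact two-sided permutation tests gave p = 0.1, 0.1 and 0.6 for these 3 pairs (0.15, 0.15 and 0.6 after Benjamini-Hochberg adjustment over them), where 0.1 is the smallest p that 3 against 3 arrays allow. A test of this size could not pass 0.05 whatever the values, so whether the chain genes changed unequally is not settled by it.

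Fcna encodes ficolin A, a soluble lectin of macrophages in rodents that recognises acetylated sugars. Its signals were 2290, 2482 and 2311 on PT and 1510, 1531 and 1499 on OPN. No array of 1 coating reached the range of the other, and the OPN arrays lay close together. With an OPN mean of 1513 ± 16.4 and a PT mean of 2361 ± 105 (SD, n = 3 each), Fcna was 1.55-fold lower, a difference of -0.64 (SE 0.07, interval -0.79 to -0.48, limma adjusted p = 0.000675). The difference stayed between -0.70 and -0.60 and called under all 13 alternatives.

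The start regions of 3 of these 4 genes are shown because the genes fell together. Of the 9 genes, 6 matched the RefSeq promoter table of build GRCr8, which covers 250 bases before to 50 after the gene start (C1qa, C1qb, C1r, C3, C3ar1 and Fcna). Capitals mark GAGGAA, a sequence bound by the myeloid factor PU.1, searched on both strands (TTCCTC on the other strand). C1qa lies at chr5:154419884-154420183, C1qb at chr5:154407778-154408077 and Fcna at chr3:28847188-28847487, all read 5′ to 3′ on the minus strand.
C1qa: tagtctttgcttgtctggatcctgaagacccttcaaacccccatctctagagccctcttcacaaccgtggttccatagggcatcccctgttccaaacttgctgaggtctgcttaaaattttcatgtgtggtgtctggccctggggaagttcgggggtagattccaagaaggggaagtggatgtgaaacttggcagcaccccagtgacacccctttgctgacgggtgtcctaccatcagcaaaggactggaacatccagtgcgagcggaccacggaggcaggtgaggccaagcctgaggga
C1qb: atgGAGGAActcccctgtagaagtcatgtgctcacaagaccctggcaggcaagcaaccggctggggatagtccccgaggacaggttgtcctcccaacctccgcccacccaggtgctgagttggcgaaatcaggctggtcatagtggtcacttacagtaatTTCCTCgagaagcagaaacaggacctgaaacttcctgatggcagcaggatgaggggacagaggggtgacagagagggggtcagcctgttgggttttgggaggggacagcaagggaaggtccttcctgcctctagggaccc
Fcna: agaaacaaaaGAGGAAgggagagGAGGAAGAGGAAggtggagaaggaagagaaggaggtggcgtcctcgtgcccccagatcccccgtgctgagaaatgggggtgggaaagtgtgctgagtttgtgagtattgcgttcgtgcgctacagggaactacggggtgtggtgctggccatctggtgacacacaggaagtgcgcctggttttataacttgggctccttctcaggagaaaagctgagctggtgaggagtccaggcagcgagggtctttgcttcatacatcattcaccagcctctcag

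Counted from the gene start, C1qb held 2 GAGGAA matches, at -247 and -90, and Fcna held 3 between -240 and -221, of which 2 lie side by side. C1qa held 0, as did C3 and C3ar1, which did not pass the test. Of 33469 RefSeq windows of this length, 27.6% held GAGGAA. A match describes the letters only. Shorter forms such as GGAA, which the C1qa window also holds, were not searched, so a window without GAGGAA may hold other PU.1 sites. In the RefSeq gene table C1qb, C1qc and C1qa follow each other with 0 other genes starting between them.

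C1r and C1s encode the paired serine proteases that C1q carries, of which C1r activates C1s and C1s cleaves the next components. C1r had signals of 204, 218 and 217 on PT and 345, 324 and 294 on OPN. Every OPN array was above every PT array, with OPN replicate 4 the lowest of its coating. Its OPN mean was 321 ± 25.2 and its PT mean 213 ± 7.77 (SD, n = 3 each), so that C1r was 1.47-fold higher, a difference of 0.55 (SE 0.08, interval 0.37 to 0.73, limma adjusted p = 0.0035). The call held under 12 of the 13 alternatives and was lost with the replicate number as a block (0.52, adjusted p = 0.0895).

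C1s had signals of 187, 148 and 149 on PT and 165, 166 and 140 on OPN, and the coatings overlapped. PT replicate 1 was the highest of the 6 arrays. The difference of C1s was -0.03 (SE 0.11, interval -0.28 to 0.21, limma adjusted p = 0.921), and it turned to 0.07 without PT replicate 1 and to 0.04 without OPN replicate 4. Within each array, the log2 signal of C1r minus that of C1s was 0.12, 0.51 and 0.50 on PT and 0.99, 0.90 and 0.99 on OPN. That gap was wider on every OPN array, by 0.59, and by 0.46 without PT replicate 1. This pair was set against each other after its values were seen and was not tested. In the RefSeq gene table the genes are neighbours, with 0 other genes starting between them. The RefSeq window of C1r, shown for its opposite direction to C1q, lies at chr4:159098763-159099062 of GRCr8 on the plus strand and held 1 GAGGAA match, at -55 on the other strand (TTCCTC, capitals).
C1r: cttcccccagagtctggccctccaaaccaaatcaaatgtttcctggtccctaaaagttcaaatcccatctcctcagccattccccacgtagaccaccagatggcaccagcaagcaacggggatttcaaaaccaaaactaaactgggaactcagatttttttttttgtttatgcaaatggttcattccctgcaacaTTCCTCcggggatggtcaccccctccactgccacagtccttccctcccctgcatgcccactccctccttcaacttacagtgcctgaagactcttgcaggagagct

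C3, on which all pathways converge, had signals of 615, 662 and 760 on PT and 633, 715 and 675 on OPN. The coatings overlapped throughout. Its OPN mean of 674 ± 41.0 and PT mean of 679 ± 74.0 (SD, n = 3 each) gave a difference of -0.01 (SE 0.09, interval -0.22 to 0.21, limma adjusted p = 0.986). The interval corresponds to a ratio of OPN to PT between 0.859 and 1.15, and the value turned to 0.08 without PT replicate 4 and to 0.04 without OPN replicate 2.

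The receptor genes differed from each other in their pattern. C3ar1, the receptor of the C3a fragment, had 272, 275 and 263 on PT and 231, 238 and 206 on OPN. All OPN arrays lay below the PT arrays, by an average of 0.25 on the log2 scale. That difference of -0.25 (SE 0.08, interval -0.42 to -0.08) did not pass in limma at adjusted p = 0.111, but it was called lower with equal array medians (adjusted p = 0.0355) and after quantile normalisation (adjusted p = 0.0247), at -0.32 in both. C5ar1, the receptor with which neutrophils and macrophages sense the C5a fragment, had 322, 310 and 350 on PT and 338, 343 and 343 on OPN. The OPN arrays lay inside the PT range. Its difference was 0.06 (SE 0.07, interval -0.10 to 0.22, limma adjusted p = 0.764), and it turned to -0.01 and -0.02 with those scalings.

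**Figure D2:**
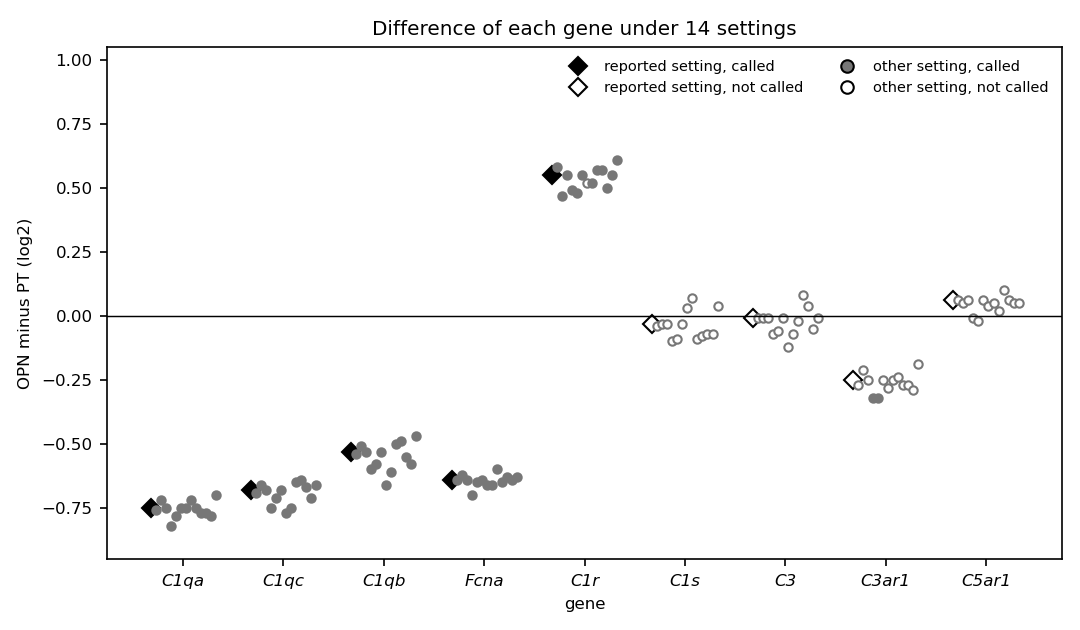
OPN minus PT difference (log2, vertical axis) of each of the 9 genes (horizontal axis) under 14 settings, with the reported setting as a diamond, other settings as circles, and filled symbols where limma's adjusted p was below 0.05. The C1q chain genes and Fcna stay below -0.40 and C1r above 0.40 throughout, with C1r open at 1 setting (the replicate block), while C1s, C3 and C5ar1 lie around 0 and C3ar1 is filled at 2 settings.

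The remaining complement genes were taken from lists by role. Of 49 listed, 41 had a row with 1 symbol, and the others, such as C2, C4a, C4b, Cfb and C5, were not analysed here. In limma's fit 9 of the 41 rose on OPN and 1 fell, against 5.05% and 0.77% of all rows, and their median difference was 0.10. Of the 14506 genes with 1 row each, 1105 rose and 162 fell. Complement genes thus changed in both directions. The same shares of all rows and genes stand beside the counts by role and by marker list that follow. Each role list had at most 12 measured genes, and its count is a description.

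In the classical list the inhibitor of C1r and C1s changed most. Serping1, which encodes C1 inhibitor, had 116, 159 and 127 on PT and 534, 537 and 519 on OPN. It was 3.67-fold higher on OPN, a difference of 1.87 (SE 0.11, limma adjusted p = 1.36e-05), the largest of all 50 complement genes measured. C1rl, a protease gene related to C1r, did not pass (0.10, SE 0.08).

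In the lectin list 1 of 8 genes rose and 0 fell. Colec12, a collectin of the cell membrane that also acts as a scavenger receptor, had 221, 178 and 249 on PT and 673, 672 and 566 on OPN, a 2.83-fold difference (limma adjusted p = 0.000142). Fcnb, the ficolin gene of marrow myeloid cells, lay in the other direction from Fcna at 0.26 (SE 0.11) with overlapping arrays and did not pass (limma adjusted p = 0.231). The mannose-binding lectin and lectin pathway protease genes had no call either, among them Masp1 (0.15), nor had the collectin gene Colec11 (-0.14).

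In the alternative pathway Cfp, which encodes properdin, the factor that stabilises the C3-cleaving enzyme, moved with C1q and Fcna. It had 2508, 2962 and 2838 on PT and 1795, 1958 and 1789 on OPN. The signal was 1.49-fold lower on OPN (difference -0.58, SE 0.08, limma adjusted p = 0.00418) and stayed called under all 13 alternatives. Cfd, the protease factor D, had a difference of -0.15 and did not pass (limma adjusted p = 0.288), with arrays that did not overlap.

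Of 6 measured genes of the terminal pathway, which forms the membrane attack pore, 2 rose and 0 fell. C7 had 146, 94.9 and 114 on PT and 261, 277 and 265 on OPN and was 2.13-fold higher (limma adjusted p = 0.00115). C6 was 1.46-fold higher, with 127, 109 and 117 on PT and 193, 172 and 174 on OPN. The pore genes C8a, C8b, C8g and C9 had differences between -0.02 and 0.15 and no call.

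Among 12 measured regulators 2 rose and 0 fell. Clu, the extracellular chaperone clusterin that restrains pore formation, was 1.56-fold higher (limma adjusted p = 0.00927, and 0.0998 with the replicate block), at 557, 641 and 472 on OPN and 357, 330 and 359 on PT. Cr1l, which encodes the rodent membrane regulator Crry, was 1.28-fold higher (limma adjusted p = 0.0394), a call lost without each array except PT replicate 4 (adjusted p between 0.101 and 0.148), with pseudocount 1 (0.055), with equal array medians (0.075) and with the replicate block (0.329). C4bpa, a chain of the fluid-phase C4b-binding protein, had a difference of 0.14 and did not pass (limma adjusted p = 0.393), although its arrays did not overlap.

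Among 11 measured receptors and C1q-binding proteins 3 rose and 0 fell. Cd93, a membrane glycoprotein once described as a C1q receptor, was 1.33-fold higher, at 462, 487 and 483 on OPN and 363, 357 and 347 on PT (limma adjusted p = 0.00677, and 0.162 with the replicate block). Calr, the chaperone calreticulin that binds C1q tails, and C1qbp, a mitochondrial protein also found to bind C1q, were 1.25-fold and 1.24-fold higher (adjusted p = 0.0437 and 0.0464). Their calls were fragile. That of C1qbp was lost without any 1 of the 6 arrays (adjusted p between 0.0603 and 0.187) and with pseudocount 1, either scaling or the replicate block (0.397), and that of Calr without each array except PT replicate 4 (0.0904 to 0.177), with pseudocount 1 (0.0605), with equal array medians (0.111) and with the replicate block (0.438). Lrp1, a large endocytic receptor, did not pass (-0.29, limma adjusted p = 0.0829) and was called lower with equal array medians (adjusted p = 0.039). Itgam (0.24), the alpha chain of the integrin that binds C3 fragments, had no call. The engulfment receptor genes Megf10 (0.34) and Scarf1 (0.24) had none either, though Megf10 was called higher with trend and robust eBayes (adjusted p = 0.0343).

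**Figure D3:**
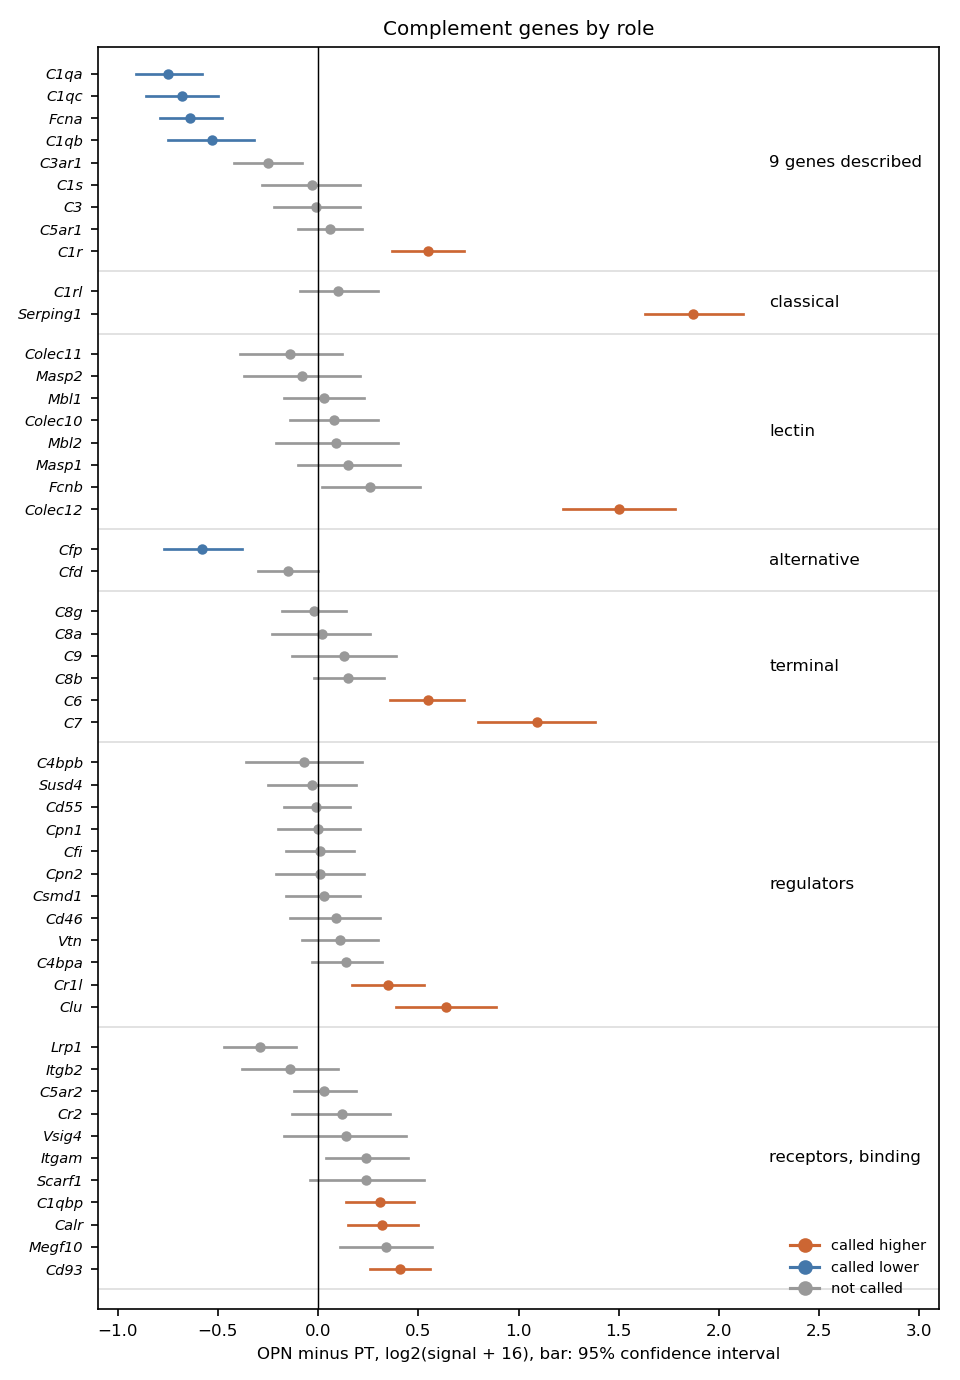
OPN minus PT difference (log2 of signal + 16, horizontal axis) with its 95% confidence interval for the 9 genes described and 41 other complement genes, grouped by role, coloured by limma's call. Serping1 (1.87), Colec12 (1.50) and C7 (1.09) lie farthest to the right, and the C1q chain genes, Fcna and Cfp farthest to the left.

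Markers of the cell types in bone moved on the same arrays. The summed signal of a list compares arrays and is weighted to its brightest probe sets. Among stromal markers, Col1a1 and Col1a2 had means of 5553 and 3066 on PT and 20319 and 17068 on OPN. Among osteoclast markers, Car2, which was not called, had 8897 on PT and 7673 on OPN. Of 16 measured macrophage markers 9 fell and 0 rose (median -0.40), and their summed signal was 19085 to 20157 on PT and 14978 to 16027 on OPN, beside the fall of C1q, Fcna and Cfp. The 7 uncalled macrophage markers included 4 with differences above 0, namely Cd68 (0.18), Csf1r (0.12), Lyz2 (0.26) and Fcgr2b (0.11). C5ar1 (0.06), named above as a receptor of neutrophils and macrophages, did not fall with C1q, and C3ar1 (-0.25) was not called. In the receptor list Itgam (0.24), Vsig4 (0.14) and Itgb2 (-0.14) were not called either. All 14 measured stromal fibroblast markers rose (median 2.17, summed signal 10629 to 11332 on PT and 46155 to 50993 on OPN), beside the rise of C1r, Serping1, Colec12, C6 and C7. C1s (-0.03), named above with C1r as a stromal product, did not rise with them, nor did C3 (-0.01). Osteoblast markers (11 of 11 rose, median 2.46, 2979 to 3342 and 24600 to 27611), osteoclast markers (8 of 11, median 0.73, 11969 to 14286 and 29820 to 33409), endothelial markers (8 of 9, median 0.70, 1590 to 1739 and 2677 to 2859) and platelet markers (6 of 6, median 0.73, 2224 to 2368 and 3829 to 4171) rose as well, with 0 falling in each. Of 7 erythroid markers 2 fell (median -0.25, summed signal 35325 to 40076 on PT and 31385 to 33698 on OPN). Granulocyte markers had 0 of 14 called (median 0.17, 11809 to 18846 and 17188 to 19334), and those of hepatocytes, the main source of complement in blood, 0 of 7 (median 0.05, 973 to 1151 and 1029 to 1165). No marker row had an array at or below 16 units, but 16 is the offset and not a detection limit. On PT the hepatocyte marker means ran from 88.0 (Apoh) to 263 (Ahsg). That range also held Colec12 (216), C1r (213), C1s (162), Serping1 (134), C6 and C7 (118 each) on PT. Whether such dim rows were detected is not known. The part of these shifts in the complement differences was not tested, and in such bulk samples fewer cells of a type and less RNA per cell cannot be told apart.

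**Figure D4:**
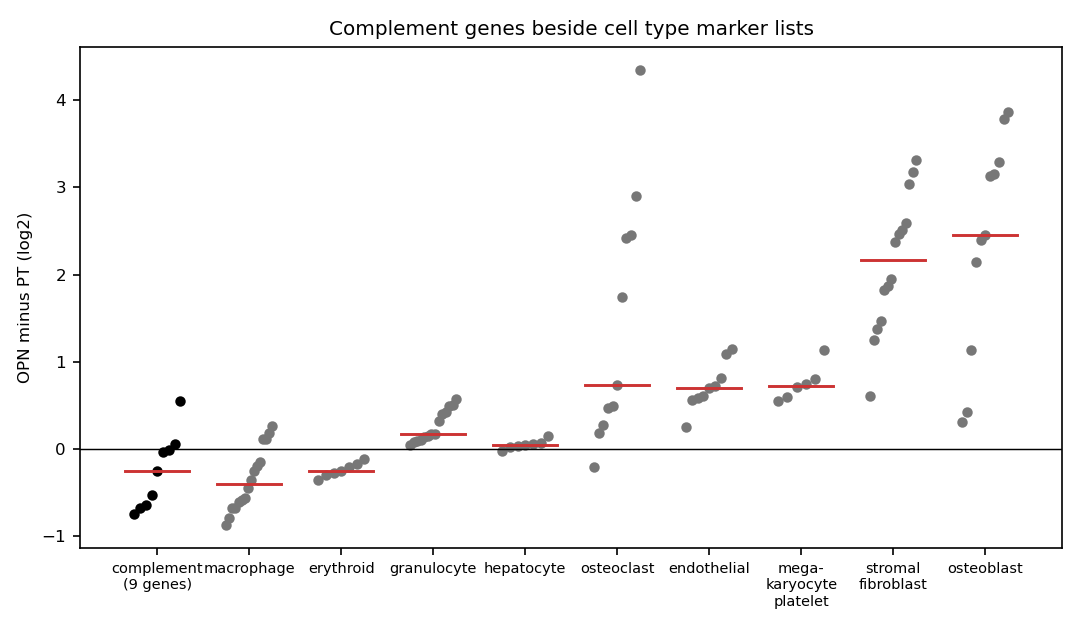
OPN minus PT difference (log2, vertical axis) of the 9 complement genes (black) and of each measured marker gene of 9 cell type lists (grey), sorted within a list, with the list's median as a red line. The C1q chain genes and Fcna lie in the range of the lower macrophage markers, and C1r lies below all 14 stromal markers.

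Genes of like pattern were searched among 14497 others by the Euclidean distance between log2 values centred per gene over the 6 arrays. Nearest to the mean of the C1q chain genes, whose difference was -0.65, stood Aif1, a cytoskeletal protein of macrophages (distance 0.084), the costimulatory molecule Cd86 (0.094) and the lectin receptor Clec4a3 (0.096). The heme-degrading enzyme Hmox1 (0.11) and the nuclease Dnase1l3 (0.12) followed. Their differences were between -0.75 and -0.61, and their Pearson correlations with the C1q mean over the 6 arrays, which fall into the coatings, were 0.992 to 0.998. Nearest to the mean of C1r and C1s, which joins a gene that rose with one that did not pass, stood Fastkd3, Golga3, Rpusd1, Kalrn and Snapc1 (distances 0.045 to 0.063, differences 0.24 to 0.26), and none of these 5 was called.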

How the data were processed

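RNA of 3 PT and 3 OPN arrays was compared. The deposited table gives 1 linear intensity per probe set and array, made with Affymetrix Expression Console and PLIER per the submitters' processing notes. No version, background correction, scaling or build is given in the sources used here. Groups and replicate numbers came from sample titles. The array annotation named 15310 rows with 1 symbol, 323 with several and 13582 with none. Values were transformed as log2(intensity + 16), and limma 3.58.1 in R 4.3.3 fitted the coating to all 29215 rows without a filter, with Benjamini-Hochberg adjustment over them. The fit recovered 71% of 100 rows moved by 0.5 and 99% of 100 moved by 1 in simulated OPN minus PT data, with 12 false calls. The simulation moved only these rows, with independent normal noise, while many more rows were called in the real fit. Its recovery therefore does not carry over to these data. Alternatives were pseudocounts 1 and 64, a mean signal of at least 100, equal medians, quantile normalisation, trend and robust eBayes, a replicate block and leaving out each array. Averaging a gene's rows changes nothing, as each complement gene has 1. The rule for naming took the 9 genes, called complement genes, up to 4 others per role and the 5 nearest patterns. Members and lists were chosen with earlier results of these data known, and the motif after the sequences were seen.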

Additional observations from a re-analysis of the deposited data

How the results depend on the processing

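C1qa, C1qb, C1qc and Fcna kept their direction and call under all 13 alternatives. Replicate numbers 2 and 4 occur in both coatings, but deviations of same-numbered arrays correlated at -0.08 and 0.07, within the -0.11 to 0.18 of differently numbered ones. These 2 pairs and the labels do not settle whether a preparation was shared, and no block was used. With the replicate number as a block, 0 of the 9 genes were called higher (C1r 0.52, adjusted p = 0.0895), C1s turned to 0.03, 4 other complement genes were called higher (5 of the 9 calls were lost, those of Clu, Cd93, Cr1l, C1qbp and Calr), and over all rows 618 were called higher and 48 lower. Leaving out 1 array, C1s ran from -0.09 to 0.07 (0.07 without PT replicate 1, 0.04 without OPN replicate 4) and C3 from -0.07 to 0.08 (0.08 without PT replicate 4, 0.04 without OPN replicate 2). C5ar1 turned to -0.01 with equal array medians and -0.02 with quantile normalisation. The lower calls among other complement genes numbered 2, with Lrp1, under pseudocount 64, the filter at 100, equal medians, and trend and robust eBayes. Over all rows the reported fit called 1475 higher and 225 lower. The lower calls were 382 with pseudocount 64, 343 with the filter, 551 with equal medians, 745 with quantile normalisation and 516 with trend and robust eBayes. Leaving out 1 array gave 928 to 1357 higher calls (982 without OPN replicate 2 and 928 without OPN replicate 3) and 95 to 181 lower ones (121 without PT replicate 2, 129 without PT replicate 4, 98, 95 and 99 without OPN replicates 2, 3 and 4). C1qa minus C1qc ran from -0.13 to 0.02 in that series. The cause of these shifts was not tested.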
